A study of Mus musculus and Homo sapiens with 8 samples.

Results

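The Fc gamma receptors are the cell surface proteins through which macrophages bind IgG antibodies, and the mouse has 4 genes for them: Fcgr1, Fcgr2b, Fcgr3 and Fcgr4. Members were taken by gene symbol from the mouse count table; all 4 were found among its 25668 symbols, and all 4 passed the filter on low counts that left 13247 genes for testing. RNA sequencing covered 3 libraries of osteoclasts and 3 libraries of macrophages, made from total RNA of cells of wild-type C57BL/6 mice with no other treatment. Both cell types started from marrow flushed out of the tibia of mice aged 6 weeks, whose non-adherent cells received M-CSF (50 ng/ml), which macrophages need to grow and survive, for 2 days. Osteoclasts were formed from these cells after plating them again with M-CSF and RANKL (100 ng/ml), the signal for osteoclast formation, and macrophages were kept in M-CSF alone. The total time of either culture is not stated, so RANKL, time, plating and medium cannot be told apart. The labels do not say whether libraries of a group came from separate mice or cultures, or whether marrow was pooled, so the p-values take in library-to-library spread that may be purely technical.

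Fc gamma receptors link antibodies to the cell. The receptors encoded by Fcgr1, Fcgr3 and Fcgr4 are activating: they signal through the common gamma chain, the product of Fcer1g, whose ITAM motif recruits the kinase Syk after Src-family kinases have phosphorylated it. The receptor encoded by Fcgr2b carries an inhibitory ITIM motif in its own tail and recruits the lipid phosphatase SHIP1, the product of Inpp5d, and it needs no gamma chain at the surface. In bone, ITAM signals of this kind act beside RANKL during osteoclast formation, and immune complexes are known to influence it through these receptors.

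Total counts ran from 16743849 to 22587509 per library, so 3 counts, the limit that a count of 0 allows, correspond to 0.130 to 0.178 CPM (counts relative to the TMM-scaled library total). Intervals and floors cover counting error alone. The osteoclast label was borne out by its markers: all 10 rose, and their summed level was 11773 to 12325 CPM in osteoclasts and 56.5 to 60.7 CPM in macrophages. All 10 macrophage markers, Fcgr1 among them, were present in both groups, 4 higher and 6 lower in osteoclasts. Osteoclast library 2 stood apart from its replicates (chi-square over its degrees of freedom was 29.3 and 32.8 in pairs with it, and 2.77 in the pair without it), with 4158 CPM of the nuclear RNA Malat1 against 1424 and 1464 CPM. Macrophage library 1 held 236.7 CPM of stromal markers, against 7.15 and 2.72 CPM in the other macrophage libraries. Without osteoclast library 2 the log2 fold change was 2.42 for Fcgr2b, 1.84 for Fcgr4, -0.39 for Fcgr3 and -0.66 for Fcgr1, and without macrophage library 1 it was 2.39, 1.76, -0.44 and -0.65 in the same order of genes.

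Of the 4 receptor genes, 3 lie side by side on chromosome 1, and the promoters of all 4 are given here because the genes did not move together. On GRCm38, the build also called mm10, Fcgr2b spans 170958617 to 170976547 on the minus strand, Fcgr4 spans 171018920 to 171029761 on the plus strand and Fcgr3 spans 171051174 to 171064935 on the minus strand of chromosome 1, while Fcgr1 lies apart on chromosome 3 from 96282909 to 96293969 on the minus strand. Each sequence holds 250 bases before and 50 bases after a gene start of RefSeq (GRCm38.p6), 5′ to 3′ on the strand of the gene, and capitals mark matches to 5 motifs searched on both strands: PU.1 (GAGGAA), AP-1 (TGANTCA), the gamma-activated site (TTCNNNGAA), NFAT (TGGAAA) and the interferon response element, a doubled GAAA with any 2 bases between. RefSeq lists 2 starts of Fcgr3, and the first listed is shown.
Fcgr1 promoter: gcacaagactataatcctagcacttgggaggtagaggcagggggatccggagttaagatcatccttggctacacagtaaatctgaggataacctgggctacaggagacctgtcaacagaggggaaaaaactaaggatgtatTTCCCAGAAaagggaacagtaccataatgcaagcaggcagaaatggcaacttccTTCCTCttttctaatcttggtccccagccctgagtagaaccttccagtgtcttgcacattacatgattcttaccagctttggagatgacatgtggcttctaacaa
Fcgr3 promoter: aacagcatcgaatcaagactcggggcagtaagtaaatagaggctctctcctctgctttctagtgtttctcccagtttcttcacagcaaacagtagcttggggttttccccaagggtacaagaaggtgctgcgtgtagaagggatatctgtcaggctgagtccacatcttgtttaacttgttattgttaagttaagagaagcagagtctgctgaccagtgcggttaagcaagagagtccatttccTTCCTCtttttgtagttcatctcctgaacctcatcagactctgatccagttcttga
Fcgr4 promoter: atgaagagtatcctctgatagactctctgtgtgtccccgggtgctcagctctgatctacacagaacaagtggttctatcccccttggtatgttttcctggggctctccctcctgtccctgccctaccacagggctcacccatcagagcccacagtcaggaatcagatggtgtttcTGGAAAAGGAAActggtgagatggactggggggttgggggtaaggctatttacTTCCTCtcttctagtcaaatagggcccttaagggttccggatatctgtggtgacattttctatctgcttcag
Fcgr2b promoter: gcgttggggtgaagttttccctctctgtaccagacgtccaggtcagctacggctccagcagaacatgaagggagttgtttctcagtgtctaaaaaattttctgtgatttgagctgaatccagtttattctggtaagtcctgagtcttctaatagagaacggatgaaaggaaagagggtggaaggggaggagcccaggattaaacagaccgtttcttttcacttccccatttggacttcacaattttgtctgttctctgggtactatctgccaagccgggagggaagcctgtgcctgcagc

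The windows lie at chr3:96293920-96294219 for Fcgr1, chr1:171059354-171059653 for Fcgr3, chr1:171018676-171018975 for Fcgr4 and chr1:170976022-170976321 for Fcgr2b. Those of Fcgr3 and Fcgr2b lie wholly inside the gene spans given above, since the RefSeq starts used differ from the outer ends of those spans. The other start of Fcgr3 was not searched, so the matches depend on the start used. The 3 genes of activating receptors each held 1 match to the PU.1 motif, on the opposite strand, beginning 55 bases before the start of Fcgr1, 22 before that of Fcgr4 and 6 before that of Fcgr3. The Fcgr1 window also held 1 gamma-activated site beginning 109 bases before the start. In the Fcgr4 window 1 interferon response element and 1 NFAT motif, beginning 73 and 75 bases before the start, overlapped each other. None of the 5 motifs was found in these letters of the Fcgr2b window. Over 27025 RefSeq promoters of the same length, 28.3% held the PU.1 motif, 21.5% the NFAT motif, 8.47% the gamma-activated site, 7.93% the AP-1 motif and 3.49% the interferon response element, so the matches describe the sequences and do not show binding.

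The comparison asks how marrow macrophages and the osteoclasts formed from them differ in their equipment for binding IgG. Fcgr2b, the inhibitory receptor, and Fcgr4, an activating receptor, rose in osteoclasts, by 5.28-fold and 3.50-fold, and the activating receptors Fcgr1 and Fcgr3 fell, to levels 1.58-fold and 1.32-fold below those of macrophages. For each of the 4 genes the values of the 3 osteoclast libraries and the 3 macrophage libraries did not overlap. Changes of this kind were common: of 13247 genes tested, 63.7% were called, 32.3% higher and 31.4% lower in osteoclasts, and for 68.1% the groups did not overlap. The sizes set the receptors apart from one another. A rise at least as large as that of Fcgr2b was found for 3.85% of the genes tested and one at least as large as that of Fcgr4 for 5.21%, while 12.8% of genes fell at least as far as Fcgr1 and 22.1% at least as far as Fcgr3.

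Fcgr2b, the single inhibitory member, had 174.5, 171.2 and 178.1 CPM in osteoclast libraries 1 to 3, against 32.7, 34.3 and 32.2 CPM in macrophage libraries 1 to 3. The replicates lay close together within each group, and the lowest osteoclast library stood far above the highest macrophage library. The means were 174.6 ± 3.48 CPM in osteoclasts and 33.1 ± 1.11 CPM in macrophages (SD, n = 3 each), a log2 fold change of 2.40 (SE 0.0422, adjusted p = 3.63e-14 with edgeR's quasi-likelihood test). Counted from the most abundant symbol, it stood at ranks 1141 to 1197 in osteoclasts and at ranks 5350 to 5586 in macrophages. The gene yields more than one protein isoform in the mouse, and counts per gene do not separate them.

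Fcgr4 encodes the activating receptor best known for binding IgG2a and IgG2b complexes. It had 80.3, 73.3 and 77.7 CPM in osteoclast libraries 1 to 3, against 20.1, 23.8 and 21.9 CPM in macrophage libraries 1 to 3. All osteoclast libraries were high and all macrophage libraries low, with a wide gap between them. The means were 77.1 ± 3.54 CPM and 22.0 ± 1.83 CPM (SD, n = 3 each), a log2 fold change of 1.81 (SE 0.0706, adjusted p = 8.56e-11). It stood at ranks 2788 to 3034 in osteoclasts, against 6491 to 6961 in macrophages.

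Fcgr1 encodes the high-affinity receptor, CD64, which can bind single IgG molecules and serves as a macrophage marker. It had 117.4, 124.3 and 128.5 CPM in osteoclast libraries 1 to 3, against 195.7, 190.4 and 198.8 CPM in macrophage libraries 1 to 3. The gene fell in osteoclasts but stayed well above the floor in every library. The means were 123.4 ± 5.59 CPM and 195.0 ± 4.21 CPM (SD, n = 3 each), a log2 fold change of -0.66 (SE 0.0391, adjusted p = 6.57e-09).

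Fcgr3 encodes the low-affinity activating receptor CD16, and per kilobase of transcript it had the highest level of the 4 receptors in both groups. It had 204.9, 201.3 and 207.6 CPM in osteoclast libraries 1 to 3, against 251.3, 271.9 and 285.8 CPM in macrophage libraries 1 to 3. The macrophage libraries spread more widely than the osteoclast libraries, and the lowest macrophage value lay above the highest osteoclast value. The means were 204.6 ± 3.16 CPM and 269.7 ± 17.3 CPM (SD, n = 3 each), a log2 fold change of -0.40 (SE 0.0454, adjusted p = 4.76e-06). Each library measures RNA of a whole culture, in which fewer cells carrying a transcript and less transcript per cell cannot be told apart.

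**Figure D1:**
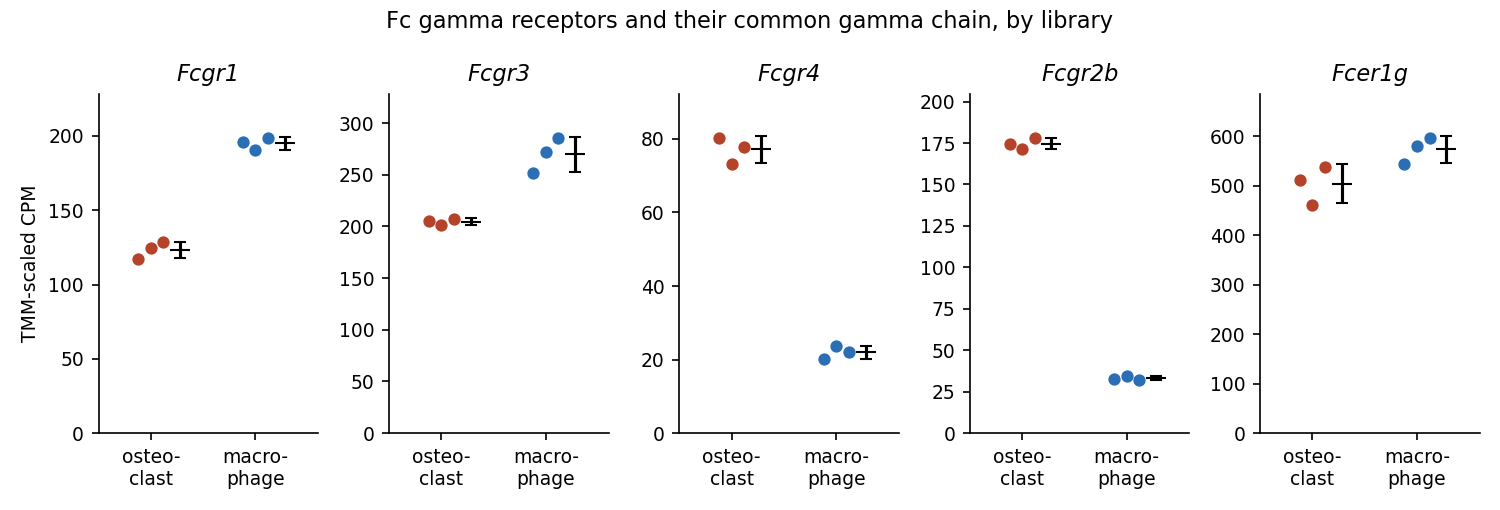
TMM-scaled CPM (vertical axes, starting at 0) of the 4 Fc gamma receptor genes and of Fcer1g in each osteoclast and macrophage library (points), with the mean and SD of 3 libraries as black bars. Fcgr2b at 171.2 to 178.1 CPM and Fcgr4 at 73.3 to 80.3 CPM in osteoclasts lie above every macrophage library, and Fcgr1, Fcgr3 and Fcer1g lie below.

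Reads from Fcgr2b and Fcgr3 can be hard to tell apart, because the genes encode closely similar IgG-binding parts. Of the windows of 50 bases in the coding transcripts of Fcgr3 (GENCODE M21), 10.2% also occurred in transcripts of Fcgr2b, and these made up 4.48% of the windows of Fcgr2b. At 100 bases the shares were 2.70% for Fcgr3 and 1.14% for Fcgr2b. For Fcgr1 and Fcgr4 no window of either length occurred in transcripts of any other gene. Fcgr2b also shared windows with genes other than Fcgr3, after which Gm4117 held the most (0.81% at 50 bases). With Fcgr3 included, 6.72% of Fcgr2b windows of 50 bases and 2.12% of those of 100 bases occurred in some other gene. The longest stretch that Fcgr2b and Fcgr3 share letter for letter is 129 bases long, all of them coding and running from exon 3 into exon 4 of the transcripts compared, and it is shown to make that identity visible (minus strand of chromosome 1 on GRCm38, within 170966674 to 170968081 for Fcgr2b and 171054167 to 171057792 for Fcgr3, introns left out).
Stretch shared by Fcgr2b and Fcgr3: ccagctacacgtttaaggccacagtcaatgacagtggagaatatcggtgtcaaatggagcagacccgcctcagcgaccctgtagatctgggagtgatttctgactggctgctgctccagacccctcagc

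How reads with more than one place were counted is not stated, so both counts are uncertain to that extent. Summed into 1 row, the counts of Fcgr2b and Fcgr3 were higher in osteoclasts by 0.32 log2 (adjusted p = 4.56e-05). An antisense gene, Gm38204, overlaps the start of Fcgr2b on the other strand, and it had 3, 2 and 1 counts in osteoclast libraries 1 to 3 and 0, 1 and 1 in macrophage libraries 1 to 3. Whether the counting used strand is likewise not given for the mouse libraries.

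Ratios between receptors inside a library do not depend on the scaling between libraries, and they were compared for 5 pairs or sums with an exact permutation test over the 6 libraries (two-sided), in which 3 libraries against 3 cannot give a p below 0.1. For Fcgr3 over Fcgr2b, the activating receptor with the most counts over the inhibitory one, the count ratio was 1.17, 1.18 and 1.17 in osteoclast libraries and 7.69, 7.92 and 8.87 in macrophage libraries. Fcgr3 thus had about as many counts as Fcgr2b in osteoclasts and several times as many in macrophages. The difference in the log2 ratio was -2.80 (exact permutation p = 0.1, 0.125 after Benjamini-Hochberg adjustment over the 5 ratios). The Fcgr1 to Fcgr2b ratio was 0.673, 0.726 and 0.721 in osteoclast libraries and 5.99, 5.55 and 6.17 in macrophage libraries, a difference of -3.06 log2 (exact p = 0.1, adjusted 0.125). Counts of the high-affinity receptor were below those of the inhibitory receptor in every osteoclast library and above them in every macrophage library. The Fcgr4 to Fcgr2b ratio was 0.460, 0.428 and 0.436 in osteoclast libraries and 0.616, 0.693 and 0.681 in macrophage libraries, a difference of -0.59 log2 (exact p = 0.1, adjusted 0.125). Both genes rose, and the ratio shows that Fcgr2b rose further in every comparison of an osteoclast with a macrophage library.

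The 3 activating receptors were also summed, as counts per kilobase of joined exons, and set against Fcgr2b. This ratio was 7.54, 7.52 and 7.51 in osteoclast libraries and 41.9, 42.0 and 46.5 in macrophage libraries. Its level rests on the length given to Fcgr2b: per median coding transcript it was 2.30, 2.29 and 2.29 in osteoclast libraries and 13.1, 13.2 and 14.6 in macrophage libraries. The groups did not overlap under either length. Per joined exon length the osteoclast libraries lay closer together than the macrophage libraries, and the log2 difference was -2.53 (exact permutation p = 0.1, adjusted 0.125), or 5.77-fold lower in osteoclasts. Set against Fcer1g, the chain the activating receptors share, the same sum gave 0.388, 0.421 and 0.375 in osteoclast libraries and 0.380, 0.376 and 0.379 in macrophage libraries. Here the groups overlapped, with a log2 difference of 0.06 (exact permutation p = 0.4, adjusted 0.4); it was -0.076 without division by gene length.

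**Figure D2:**
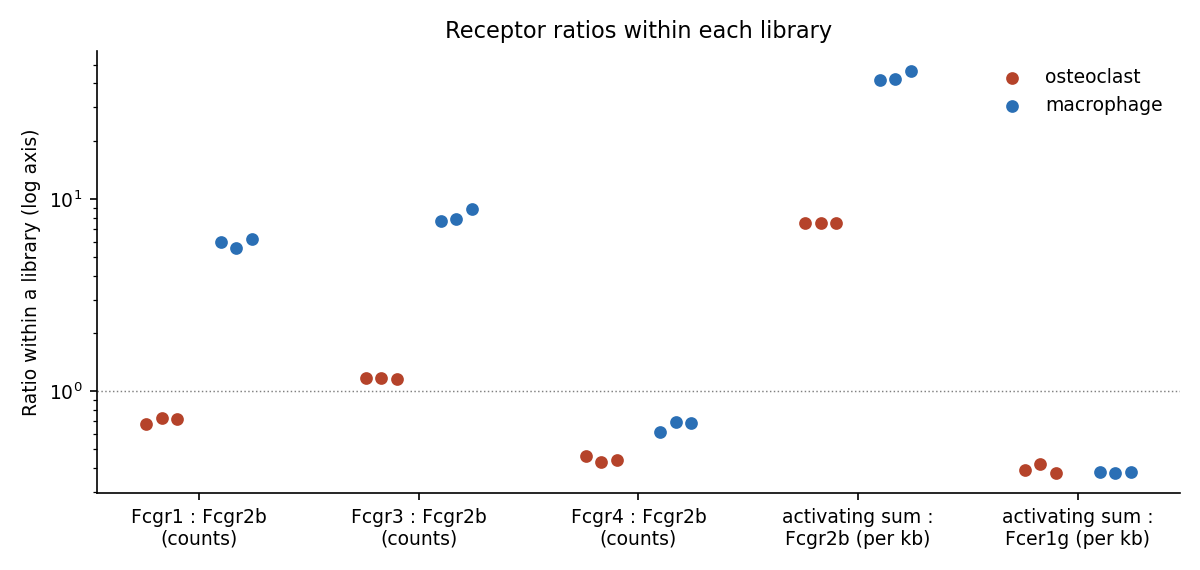
Ratios between receptor genes within each library (vertical log axis), from counts for the single pairs and from counts per kilobase for the sums; each point is 1 of 3 osteoclast or 3 macrophage libraries and the dotted line marks 1. The ratios to Fcgr2b are lower in all osteoclast libraries, by -2.53 log2 for the activating sum, while the ratio of that sum to Fcer1g overlaps between groups.

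Levels of different genes can be compared per length, and for Fcgr2b the outcome turns on the length used, since its joined exons measure 5790 bases and its coding transcripts have a median of 1520 bases. In osteoclasts the order per kilobase of joined exons was Fcgr3 (117.8 ± 1.82 CPM per kb), Fcgr4 (61.4 ± 2.82), Fcgr1 (47.7 ± 2.16) and Fcgr2b (30.2 ± 0.601; SD, n = 3). In macrophages it was Fcgr3 (155.3 ± 9.99 CPM per kb), Fcgr1 (75.3 ± 1.63), Fcgr4 (17.5 ± 1.46) and Fcgr2b (5.71 ± 0.192). Fcgr4 therefore stood above Fcgr1 in osteoclasts and below it in macrophages, and neighbours in both orders were separated by more than their spread. Per median coding transcript, Fcgr2b stood between Fcgr3 and Fcgr4 in osteoclasts at 114.9 ± 2.29 CPM per kb and between Fcgr1 and Fcgr4 in macrophages at 21.8 ± 0.732 CPM per kb, and the other receptors kept their order.

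As shares of the receptor pool per joined exon length, Fcgr2b made up 11.7% ± 0.0235 in osteoclasts and 2.25% ± 0.130 in macrophages (SD, n = 3 each). Fcgr4 made up 23.9% ± 0.856 in osteoclasts and 6.88% ± 0.471 in macrophages. The shares of Fcgr3 were 45.8% ± 0.186 in osteoclasts and 61.2% ± 1.24 in macrophages, and those of Fcgr1 were 18.5% ± 0.805 and 29.7% ± 1.33 in the same order of groups. Per median coding transcript the Fcgr2b share was 30.4% ± 0.0515 in osteoclasts and 6.85% ± 0.392 in macrophages. The pool as a whole hardly differed per joined exon length, at 257.1 ± 5.00 CPM per kb in osteoclasts and 253.8 ± 11.2 CPM per kb in macrophages, a gap smaller than the spread of either group; per median coding transcript it was 378.4 ± 7.25 and 318.2 ± 14.3 CPM per kb.

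**Figure D3:**
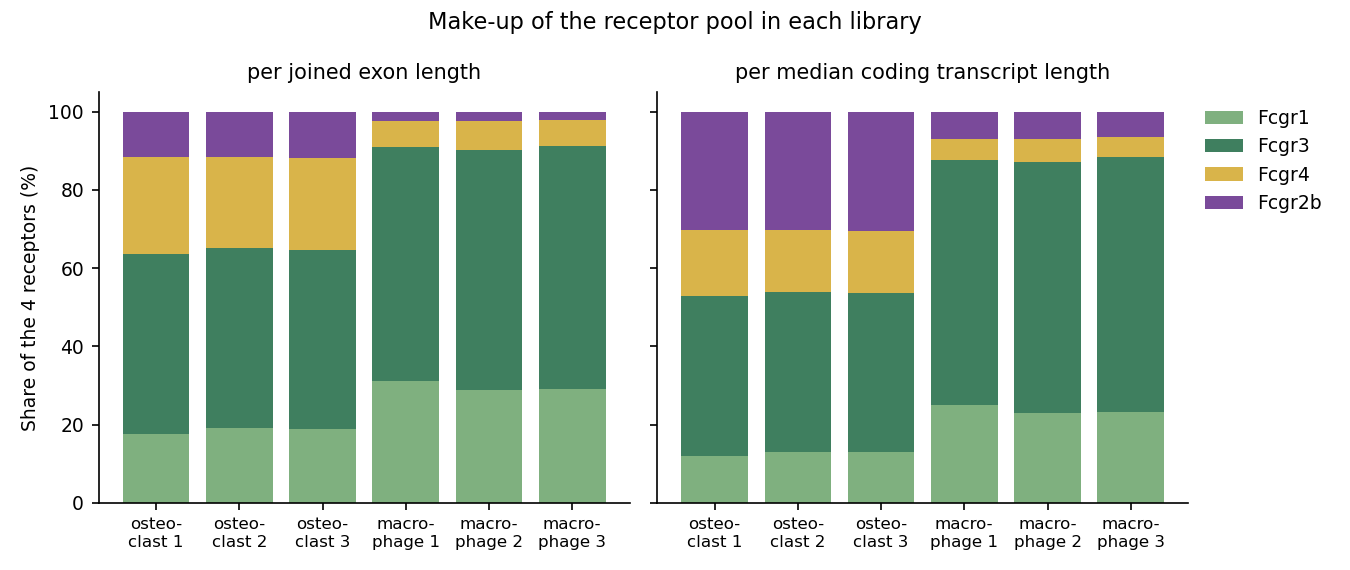
Share of each receptor in the summed level of the 4 genes (vertical axis, percent) in each osteoclast and macrophage library, with levels taken per joined exon length (left) and per median coding transcript length (right). Fcgr2b and Fcgr4 take larger shares in all 3 osteoclast libraries under both lengths; the Fcgr2b share averages 11.7% or 30.4% in osteoclasts and 2.25% or 6.85% in macrophages.

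A list of 15 genes covered other Fc and antibody-binding receptors, with the gamma chain and Fc receptor-like relatives among them. Of these, 11 were in the table and 5 were tested: Fcer1g, Fcgrt, Trim21, Fcrl1 and Fcrls. All 5 were called lower, beside 31.4% lower and 32.3% higher over all genes tested. Their median log2 fold change was -1.66 against -0.00 over all genes tested. Fcer1g, the gamma chain, had 512.2, 461.9 and 538.4 CPM in osteoclast libraries and 544.1, 579.7 and 596.7 CPM in macrophage libraries. The groups did not overlap, although the highest osteoclast library came close to the lowest macrophage library. The gene was called lower by a small amount (log2 fold change -0.19, SE 0.0592, adjusted p = 0.0146), and the call was lost on the deposited scale (adjusted p = 0.0846) and without macrophage library 3 (log2 -0.15, adjusted p = 0.0634). The deposited scale takes the values as they stand and leaves unequal library totals uncorrected, so depth differences enter the comparison. Fcgrt, the neonatal Fc receptor that returns IgG from endosomes, fell to 11.2 ± 0.979 CPM in osteoclasts, against 35.2 ± 0.901 CPM in macrophages (log2 -1.66, adjusted p = 2.48e-10). Trim21, the cytosolic antibody receptor, fell to 34.6 CPM in osteoclasts, against 58.9 CPM in macrophages (log2 -0.77, adjusted p = 2.83e-06).

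The Fc receptor-like genes, relatives of the Fc receptors, were low or falling. Fcrls fell by 3.95 log2, to 8.60 CPM in osteoclasts against 133.3 CPM in macrophages (adjusted p = 1.03e-13), and Fcrl1 fell by 1.82 log2, to 3.85 CPM against 13.7 CPM (adjusted p = 1.67e-08). The relatives Fcrla and Fcrlb lie beside Fcgr2b on the side away from Fcgr4 and were too low to be tested: Fcrla had 1, 3 and 0 counts in osteoclast libraries and 2, 4 and 2 in macrophage libraries, and Fcrlb had 11, 5 and 7 counts in osteoclast libraries and 2, 0 and 3 in macrophage libraries. Of the 5 tested genes, 0 were higher by edgeR, also at an unadjusted p under 0.05. With no filter on low counts edgeR called 2 higher, Fcrlb and Fcrl6, and DESeq2 called Fcrl6, which had 6, 0 and 6 counts in osteoclast libraries and 0 in every macrophage library.

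Among the 5 nearest tested genes on each side of the receptor cluster, 3 were called higher, 4 lower and 3 were not called, which is close to the 32.3% higher and 31.4% lower over all genes tested. On the near side of Fcgr3, Sdhc, a subunit of respiratory complex II, rose by 0.42 log2 (lost on the deposited scale, adjusted p = 0.26), and Pcp4l1 fell by 4.31 log2, to 5.67 CPM in osteoclasts against 112.8 CPM in macrophages. On the other side, Atf6, a sensor of endoplasmic reticulum stress, fell by 0.78 log2. Of the 10 tested neighbours of Fcgr1 on chromosome 3, 4 were called higher, among them the histone gene Hist2h2be (0.76), 3 were called lower, among them Txnip (-0.46), and 3 were not called. The calls of Nos1ap and Ankrd34a, both at 2.04 CPM or less in either group, were lost under most alternatives.

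**Figure D4:**
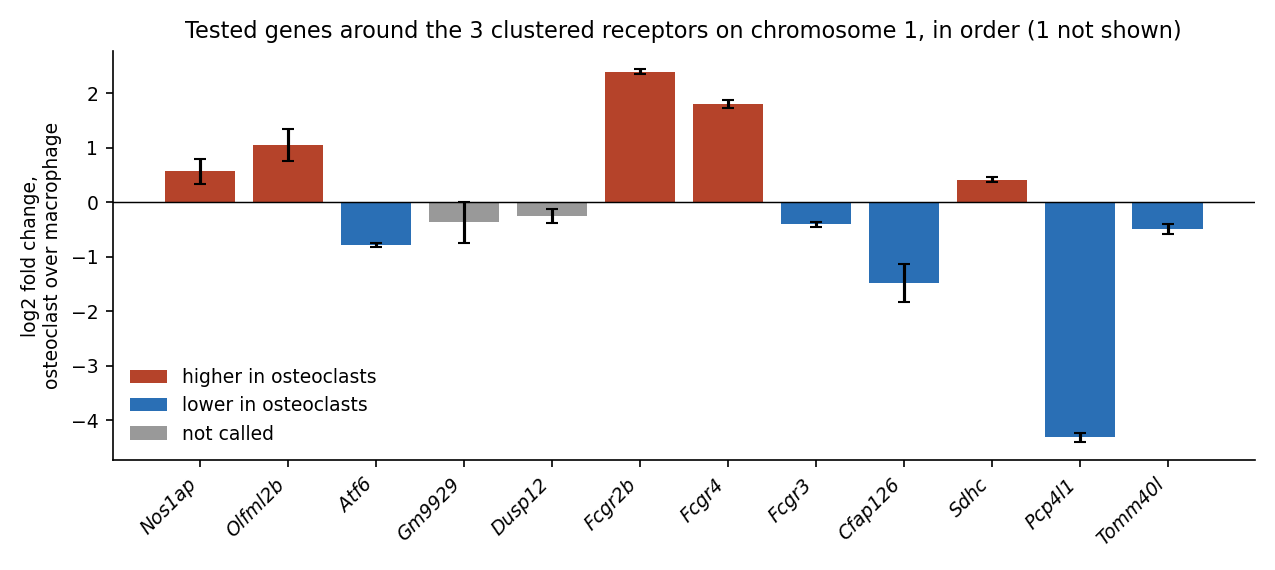
Log2 fold change, osteoclast over macrophage (vertical axis; bars with SE), of the tested genes on chromosome 1 in order of position, with the 5 nearest before Fcgr2b and 4 of the 5 nearest after Fcgr3. Fcgr2b (2.40) and Fcgr4 (1.81) rise side by side, Fcgr3 (-0.40) falls, and the flanking genes change in either direction.

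Genes with the pattern most like each receptor were ranked by the distance between profiles of log2(CPM + 1), centred on the gene's mean, over the 6 libraries, among 8727 genes with a mean of at least 10 CPM. These distances mainly reflect the size of the difference between 2 groups. Closest to Fcgr2b were Kctd12 (distance 0.0614), Gm36161 (0.0635), Prdx6 (0.111), H2-Q7 (0.139) and Gm21188 (0.155). Closest to Fcgr4 were Bnip3 (0.0747), Ptgr1 (0.142), Tmem38b (0.144), Idh1 (0.150) and Slc16a3 (0.154). For Fcgr1 they were Tsc22d1 (0.0591), Arhgef10l (0.0686), Pam (0.0717), Evi2a (0.0778) and Ap1s2 (0.0839). For Fcgr3 they were the macrophage marker Cd68 (0.0579), Zfp865 (0.0613), Cep57 (0.0677), Plekho1 (0.0718) and Plekho2 (0.0760). The receptors were not each other's nearest genes: Fcgr4 was 115th from Fcgr2b at a distance of 0.746, and Fcgr3 was 1027th from Fcgr1 at 0.357.

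Of 30 genes of activating signalling below the receptors, all tested, 13 rose, 13 fell and 4 were not called, with a median of 0.08 log2; on the deposited scale 8 rose and 9 fell. Here and for the lists that follow, the counts stand beside 32.3% higher and 31.4% lower over all genes tested, and a list with calls on both sides is not set apart from other genes by that. Of the Src-family kinases, which phosphorylate ITAMs, Src rose by 4.50 log2 (79.5 CPM in osteoclasts and 3.52 CPM in macrophages), Fgr by 2.83 (233.6 CPM in osteoclasts and 32.8 CPM in macrophages) and Lyn by 0.28, while Fyn fell by 1.28. Syk, the kinase that docks on the gamma chain, rose by 0.67 log2, to 502.1 CPM against 315.0 CPM in macrophages (adjusted p = 3.02e-08). The adaptor Lat rose by 3.02 log2 but was low throughout (2.65 CPM in osteoclasts and 0.326 CPM in macrophages). Its relative Lat2 fell (-0.62), as did Pik3r1, a regulatory subunit of phosphoinositide kinase (-0.61). The call of Lyn was lost with equal totals (0.061) and on the deposited scale (0.094). The median of all genes tested stood at -0.22 log2 with equal totals and at -0.19 on the deposited scale, so values under those scalings are read relative to these shifts.

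Of 14 genes of inhibitory signalling, 6 rose, 4 fell and 4 were not called, with a median of 0.03 log2; with equal totals 3 rose and 8 fell, and on the deposited scale 2 rose and 4 fell. Inpp5d, which encodes the phosphatase SHIP1 that Fcgr2b recruits, fell by 0.35 log2, to 341.5 CPM in osteoclasts against 434.1 CPM in macrophages (adjusted p = 1.12e-05), and its relative Inppl1 fell by 0.39. Ptpn6, the phosphatase SHP-1 of ITIM receptors, was called higher by 0.18 log2 and turned to -0.035 with equal totals and to -0.0023 on the deposited scale. Both values lay above the medians of all genes tested under those scalings (-0.22 and -0.19). Rasa1, a brake on Ras, and the ubiquitin ligase Cblb fell (-1.82 and -1.26), whereas the phosphatase Ptpn12 rose by 1.13, the adaptor Dok3 by 0.56 and Pag1 by 0.42, the last not on the deposited scale (0.24). Fcgr2b and the gene of its main effector phosphatase thus changed in opposite directions.

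Of the other myeloid receptors listed for ITIM motifs, not all of which carry a classic one, 14 were tested: 7 rose, 6 fell and 1 was not called, with a median of 0.13 log2. Siglece, a sialic acid receptor, rose by 3.67, Pilra by 2.56 and the lectin Clec4a2 by 1.79, and Cd300a (-1.27), Cd72 (-0.87) and the collagen receptor Lair1 (-0.56) fell. The rise of Fcgr2b lay between those of Pilra and Clec4a2.

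Of 34 genes of the phagocytic cup, the machinery of engulfment, 15 rose, 13 fell and 6 were not called, with a median of 0.01 log2. With equal totals 8 rose and 20 fell, and on the deposited scale 7 rose and 9 fell. The integrin chains Itgam and Itgb2, which form a complement receptor that works beside Fc receptors, rose by 1.05 and 0.70. The small GTPase Rac2 rose by 1.55 and the actin regulator Vasp by 1.33, and Elmo1 (-1.19), Myo1e (-0.85) and Gsn (-0.82) fell. Scin, an actin-severing protein, had 1818 counts in osteoclasts and 2 in macrophages, a ratio of 1034 (95% counting interval 286 to 8549). The NADPH oxidase, which makes superoxide in the phagosome, moved one way: all 6 genes rose, with a median of 0.81 log2, and 4 of 6 were called on the deposited scale. Cybb, its catalytic subunit, rose by 1.69 log2, to 2532 CPM in osteoclasts against 783.8 CPM in macrophages, and Ncf4 by 0.94.

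Of 21 genes of signals known to set receptor levels in myeloid cells, 11 rose, 7 fell and 3 were not called, with a median of 0.12 log2. With equal totals 7 rose and 11 fell, and on the deposited scale 4 rose and 7 fell. Interferon gamma, the classic inducer of Fcgr1 and Fcgr4, acts through receptor chains of which Ifngr1 fell by 0.67 log2 and Ifngr2 rose by 0.60. Its kinase Jak2 rose by 2.02, and the target Irf1 fell by 0.23. Irf8 had a log2 fold change of -0.06 (adjusted p = 0.192) and of -0.28 with equal totals, which passed the threshold. Spi1, which encodes PU.1, rose by 0.48, though not on the deposited scale (0.29, adjusted p = 0.179). Cebpb rose by 2.06 and Tnf by 0.93, and the complement receptor C5ar2 (-1.95), the cytokine Il10 (-1.57) and the receptor Tgfbr2 (-0.93) fell.

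**Figure D5:**
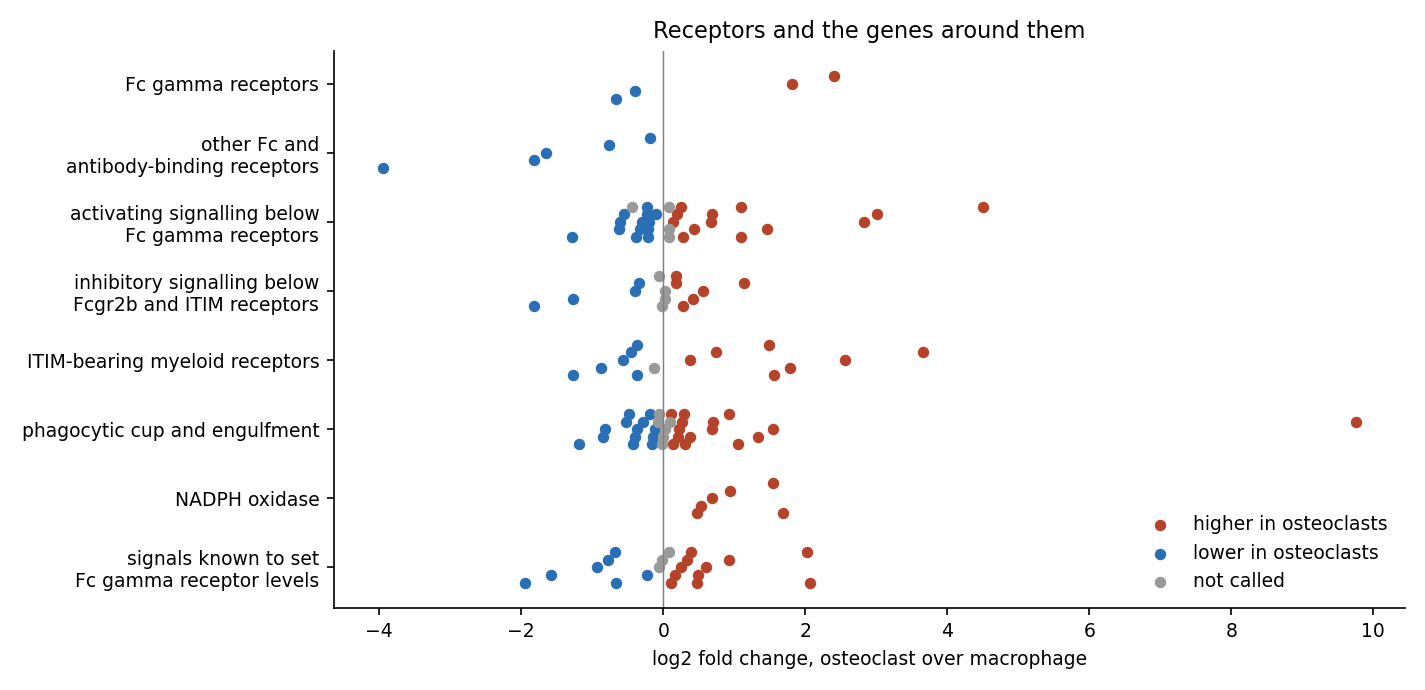
Log2 fold change, osteoclast over macrophage (horizontal axis), of every tested gene of the 4 receptors and of 7 lists around them; each point is 1 gene, coloured by its call in edgeR's test, and vertical offsets within a list carry no value. The NADPH oxidase genes all lie on the higher side and the list of other Fc receptors and relatives on the lower side, while the remaining lists lie on both. The point farthest right is Scin, whose fitted value rests on 2 macrophage counts.

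Other cells of marrow carry these receptors, so their markers were measured beside them; their part in the receptor results was not tested. Of 12 neutrophil markers, 8 were in the table and their summed level was 152.6 to 158.3 CPM in osteoclasts and 27.4 to 29.7 CPM in macrophages. Mmp8, a collagenase, averaged 113.5 CPM in osteoclasts and 1.33 CPM in macrophages, and S100a8 had 935 counts in osteoclasts and 7 in macrophages; both rose. Csf3r, the receptor of G-CSF, fell slightly, to 24.1 CPM in osteoclasts against 27.3 CPM in macrophages. Over the 3 libraries of a group, Camp had 26 counts in osteoclasts and 3 in macrophages, while S100a9, Elane, Mpo and Cxcr2 had 1, 1, 1 and 0 counts in osteoclasts and 0, 0, 1 and 1 in macrophages. Of 10 B cell markers, 8 were in the table at 2.00 to 2.44 CPM in osteoclasts and 9.95 to 13.2 CPM in macrophages; most of the macrophage level was Ighm, with 27 counts in osteoclasts and 711 in macrophages. Ighm fell, and Cr2 rose, with 64 counts in osteoclasts and 11 in macrophages. Ms4a1 and Pax5 had 0 and 0 counts in osteoclasts and 4 and 1 in macrophages. Of 9 NK cell markers, 2 were in the table at 0.535 to 0.766 CPM in osteoclasts and 0.184 to 0.607 CPM in macrophages. The markers of mast cells and basophils (4 of 9 in the table) summed to 1.31 to 1.94 CPM in osteoclasts and 1.78 to 2.81 CPM in macrophages. Of these, Kit fell, with 8 counts in osteoclasts and 113 in macrophages, while Hdc rose, with 83 counts in osteoclasts and 21 in macrophages. Cpa3 and Tpsab1 were too low to be tested, with 0 and 3 counts in osteoclasts and 11 and 1 in macrophages. Dendritic cell markers (6 of 8) summed to 13.1 to 16.4 CPM in osteoclasts and 19.7 to 22.9 CPM in macrophages; most of this was Itgax, which fell, while Zbtb46 rose, with 55 counts in osteoclasts and 8 in macrophages. Endothelial markers (7 of 7) summed to 27.7 to 30.5 CPM in osteoclasts and 44.3 to 49.3 CPM in macrophages. Most of this was Kdr, which fell, while Esam rose, with 219 counts in osteoclasts and 2 in macrophages. Stromal markers (9 of 9) summed to 17.8 to 29.6 CPM in osteoclasts and 2.72 to 236.7 CPM in macrophages. Of these, Dcn rose, with 580 counts in osteoclasts and 12 in macrophages, and the collagen genes Col1a1 and Col1a2 were called lower with a wide spread between macrophage libraries (Col1a1 at 4.55 ± 2.58 CPM in osteoclasts and 35.4 ± 57.9 CPM in macrophages, SD, n = 3 each).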

How the data were processed

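The deposited mouse table holds counts per gene symbol for 3 osteoclast and 3 macrophage libraries; the table is named as normalized, but the authors' values are whole numbers with unequal library totals. Values from 1 to 60 occurred as smoothly as raw counts would (chi-square over degrees of freedom 0.809 to 1.10, and 1.97 to 3.45 once values were rescaled by 3% and rounded), so they were analysed as raw counts. The submitters' processing notes list featureCounts 1.6.2, STAR 2.6.0c and the builds hg19 and mm10 with no role or order; the strand setting and the handling of reads with several places are not stated. The human table was not used.

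All genes were tested together by the two-sided quasi-likelihood test of edgeR 4.0.16 (R 4.3.3) with TMM scaling and filterByExpr; the model held group alone. Adjustment was by Benjamini-Hochberg over 13247 genes, calls were made at an adjusted p below 0.05, and the SE was derived from the F statistic. The test was checked on simulated counts with 200 changed genes, far fewer than were called here, so the check does not cover change this wide. Levels are TMM-scaled CPM. Gene lengths and positions come from GENCODE M21 (GRCm38), with 25462 of 25668 symbols matched, and promoters from RefSeq (GRCm38.p6). DESeq2 1.42.0, limma 3.58.1 on log2(CPM + 1), other scalings and filters, a replicate block and leaving out each library were the alternatives. Of the other scalings, equal totals corrected for library totals without TMM, and the deposited scale made neither correction.

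Members and lists were chosen with earlier results of these data known, and lists are described by counts and medians with no test of the list. Named are the 4 receptors, a fixed set of signalling partners, up to 3 called genes with the largest change in each direction per list, the 5 nearest patterns per receptor and the 5 tested genes on each side of a receptor site; the untested relatives Fcrla, Fcrlb and Fcrl6, the interferon receptor chains and single markers were named after their values were seen. A few genes that the rule names are counted but not reported here by name.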

Additional observations from a re-analysis of the deposited data

How the results depend on the processing

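The 4 receptors kept their direction and their call in all 13 alternatives of test, scaling, filter, block and left-out library: log2 fold changes ran from 2.18 to 2.43 for Fcgr2b, 1.59 to 1.88 for Fcgr4, -0.62 to -0.35 for Fcgr3 and -0.88 to -0.62 for Fcgr1, with adjusted p of at most 0.00191. Counting Fcgr2b and Fcgr3 as 1 gene gave 0.32, which turns the direction for Fcgr3 by construction, since the sum holds both. When single libraries were left out the log2 difference ran from -2.56 to -2.48 for the activating sum over Fcgr2b, -2.84 to -2.74 for Fcgr3 over Fcgr2b, -3.11 to -3.03 for Fcgr1 over Fcgr2b, -0.64 to -0.55 for Fcgr4 over Fcgr2b and 0.01 to 0.10 for the activating sum over Fcer1g, which turned to -0.076 on raw counts. The activating sum over Fcgr2b was -2.66 on raw counts, -2.17 without Fcgr3 and -2.57 with the median coding transcript length, a length chosen after seeing the data.

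Counts of calls moved by over 1.5 times with scaling. With equal totals 2625 genes were higher and 6445 lower (28.9% of calls higher, against 50.7% with TMM), and on the deposited scale 1800 were higher and 3790 lower (32.2%). Library totals are uncorrected on the deposited scale, so calls lost there may reflect sequencing depth. Among the lists, equal totals gave 3 higher and 8 lower for inhibitory signalling, 8 and 20 for the phagocytic cup and 7 and 11 for signals that set receptor levels. The deposited scale gave 8 higher for activating signalling, 2 for inhibitory signalling, 7 for the phagocytic cup and 4 for those signals. For the list of other Fc receptors and relatives, DESeq2 called 1 higher and edgeR with no filter called 2, Fcrl6 and Fcrlb, since these tests hold more genes. Leaving out single libraries gave 3975 to 4367 genes higher and 3747 to 4151 lower. Of 85 further genes, 72 kept direction and call throughout. The sign turned for Bola1 (-0.091 with equal totals, -0.058 on the deposited scale) and Ptpn6 (-0.035 and -0.0023). All these values lay above the medians of all genes tested, -0.22 with equal totals and -0.19 on the deposited scale. Relative to those medians neither gene turned, and the cause was not tested.

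Replicate numbers are shared between groups. Deviations from the group means had small correlations across genes between same-numbered libraries, of 0.0511, 0.0632 and 0.139. Each library correlated best with its own number, though osteoclast library 2 came close with macrophage library 1 (0.0485). Deviations of 3 libraries from their own mean are not independent, so these values do not establish a pairing. Whether same-numbered libraries shared a source is not stated and was not tested. With the replicate block 4237 genes were higher and 4114 lower, and Fcgr2b changed by 2.40, Fcgr4 by 1.81, Fcgr3 by -0.40 and Fcgr1 by -0.66. With 3 libraries a group and 364 to 6273 counts of a receptor per library, counting error is part of the spread between libraries, and the exact tests of ratios cannot go below 0.1.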
